A study of Mus musculus with 6 samples.

Results

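Semaphorins, plexins, slits, robos and netrins, with the co-receptor Nrp1, were examined in ear skin of mouse pups on postnatal day 3. The genes were taken by symbol from the deposited read-count table: 40 of its 18404 genes matched, namely 20 semaphorins, 9 plexins, 3 slits, 3 robos, 4 netrins and Nrp1. Of these, 38 had a mean count of at least 10 over the libraries and were compared, among 14920 genes tested in all. Just inside that limit lay Slit1 and Sema4f, with mean counts of 16.2 and 23.8. Slit1 was counted at 14, 22 and 10 in the controls and 16, 17 and 18 in the knockout, and Sema4f at 23, 29 and 16 against 24, 27 and 24, both overlapping. Just outside lay Ntn5, whose control libraries held 6, 1 and 0 counts and whose knockout libraries held 4, 1 and 5, and Robo3, with 0 or 1 count in every library.

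The study holds 3 control libraries and 3 libraries of an endothelial knockout of Vegfr2, also named Kdr and labelled ecko, which encodes the main VEGF-A receptor of blood vessels. Both groups are skin of postnatal day 3 and both are labelled as tamoxifen treated, since tamoxifen switches on the deletion. The series text gives 60 µg per day from postnatal day 1 to 2, and the series name gives 48 h. The controls are described as littermates labelled Control. Neither the Cre driver nor the alleles of either group are named in the labels, and whether each library is a separate pup is not stated. A p-value here is therefore read against the spread among these libraries only, which may be technical in part. It is not technical alone, since each group mixed libraries with and nearly without Y-linked reads, as given below.

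Library totals ran from 16987130 to 17979182 expected counts. Kdr itself was counted at 1599, 1860 and 1337 in control libraries and at 348, 431 and 370 in ecko, a log2 fold change of -2.05 with an edgeR adjusted p of 0.0002. Keratinocyte and fibroblast markers were abundant in every library. The summed CPM (reads scaled to a common library size with TMM factors) of 6 keratinocyte markers ran from 17386 to 23392 in the controls and from 18186 to 21073 in ecko. Of 5 neuronal markers 4 were too low to test. Control 3 differed most from the rest: its chi-square per gene against another library was 13.2 to 19.8, against 4.18 to 11.5 for pairs without it, and its muscle marker mean was 8.78 log2 CPM against 9.29 to 9.62. Control 2 and ecko 3 nearly lacked Y-linked reads, so each group held 1 such library.

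These proteins were named for steering growing axons, and the same pairs act on vessels. Semaphorins bind plexins, and the secreted class 3 members mostly need a neuropilin to hold the complex. Slits bind robos, and netrins bind DCC, neogenin and UNC5 receptors. In endothelium, semaphorin 3E acting on plexin D1 and netrins or slits acting on their receptors are known to restrain or direct sprouting, and NRP1 is at once a semaphorin receptor and a VEGF co-receptor. Because whole skin was sequenced, a transcript made by nerve, epidermis, dermis or muscle adds to the same count as the one made by endothelium, and fewer cells of a type cannot be told apart from less RNA per cell.

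Levels of these transcripts in neonatal skin spanned a wide range. The level per length (RPKM, the CPM divided by the kilobases of exon in GENCODE) averaged 35.9 ± 1.51 (SD, n = 6) for Plxnb2, the highest, and 0.154 ± 0.037 for Slit1, the lowest of the 38. After Plxnb2 came Ntn1 at 29.1 ± 2.57, Plxna1 at 22.5 ± 0.63, Sema3c at 21.5 ± 2.13, Sema3f at 17.3 ± 0.69, Plxnd1 at 16.9 ± 1.31, Slit3 at 15.9 ± 1.15 and Nrp1 at 12.7 ± 0.75 RPKM. The RPKM ranges of Plxnb2, Ntn1 and Plxna1 over 6 libraries did not touch. The order of Ntn1 and Plxna1 rests on exon lengths of 6277 and 9054 bp. Without division by length, Plxna1 averaged 204 CPM and Ntn1 183. Over the whole order, 29 of the 37 neighbouring pairs had ranges that overlapped. Sema3f, Plxnd1 and Slit3, for example, cannot be ranked against each other. Summed per family, the 20 semaphorins had 127 ± 1.88 RPKM in the controls and 132 ± 0.68 in ecko (SD, n = 3), with every ecko library (131 to 132) above every control (126 to 130), a ratio of 1.03 that is given as a description with no test. The 9 plexins summed to 101 ± 3.28 and 102 ± 0.41 RPKM and overlapped.

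**Figure D1:**
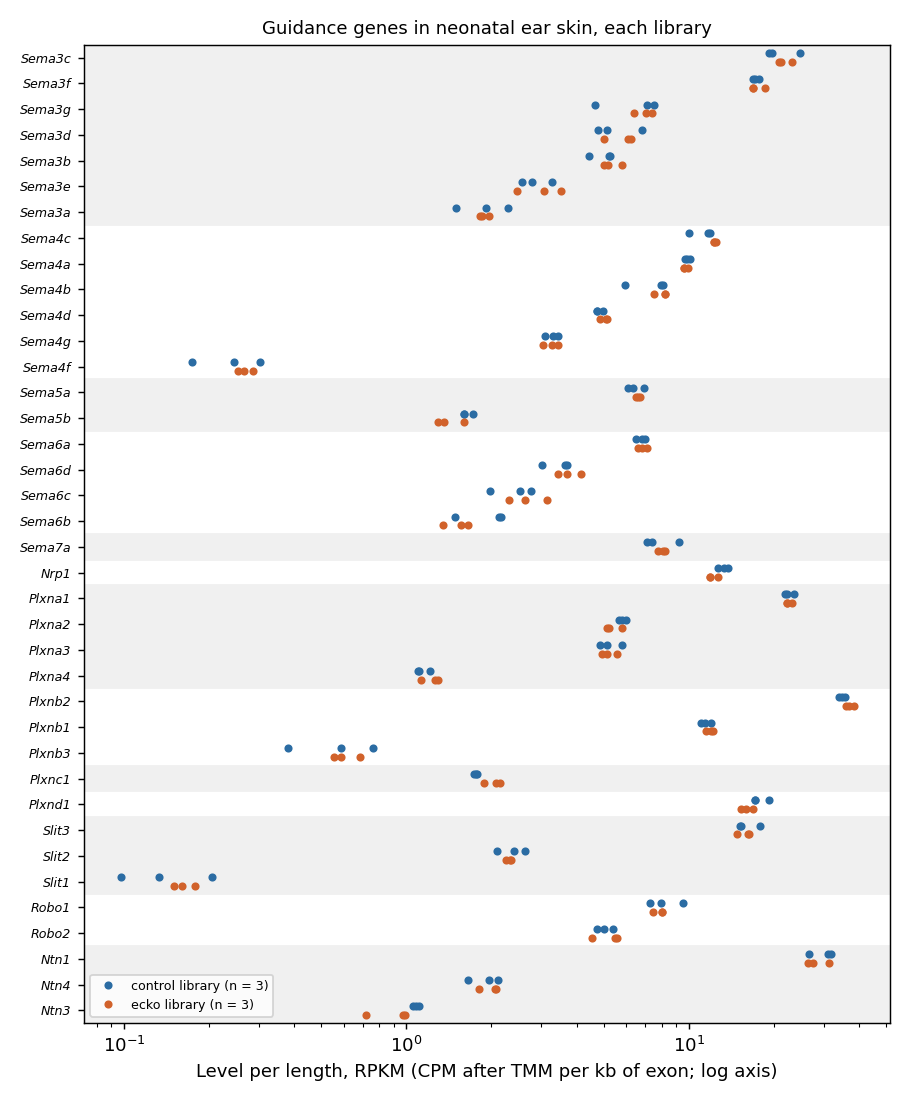
Level per length (RPKM, log axis) of the 38 compared genes in each of 3 control libraries (blue) and 3 ecko libraries (orange), with genes grouped by family in grey and white bands. Plxnb2 and Ntn1 lie furthest right and Slit1 furthest left, and for nearly every gene the colours sit on top of each other.

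No member passed the test between ecko and control. edgeR called 0 of 38 members in either direction, with adjusted p from 0.553 to 0.982, where 0.0067% of all genes tested were called. DESeq2 and limma-voom also called 0. At an unadjusted edgeR p under 0.05 there were 0 members higher and 1 lower (Plxnd1), where the shares over all genes were 4.92% higher and 4.1% lower; by DESeq2 and by limma-voom there were 0. The median log2 fold change of the members was 0.03, beside -0.002 over all genes. Of the members 24 had a higher and 14 a lower mean, where 49.5% of all genes had a higher mean. Groups did not overlap in 3 members higher in ecko (Plxnc1, Plxnb2 and Sema4c, 7.89% of the members) and in 2 lower (Plxnd1 and Ntn3, 5.26%), beside 7.55% and 8.11% over all genes.

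The estimates bound the difference in whole-skin level only, read against the spread among these libraries. A change confined to endothelium adds to the same count as other cells and is not bounded. Fold changes ran from 0.788 for Sema6b to 1.15 for Plxnc1, and 23 of 38 log2 fold changes lay within 0.1 of 0. The 95% intervals, each taken alone, lay within 1.5-fold either way for 33 members and within 2-fold for all 38. The 5 whose intervals passed 1.5-fold were Sema6b, Ntn3, Plxnb3, Sema4f and Slit1, which had 16.2 to 121 mean counts.

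**Figure D2:**
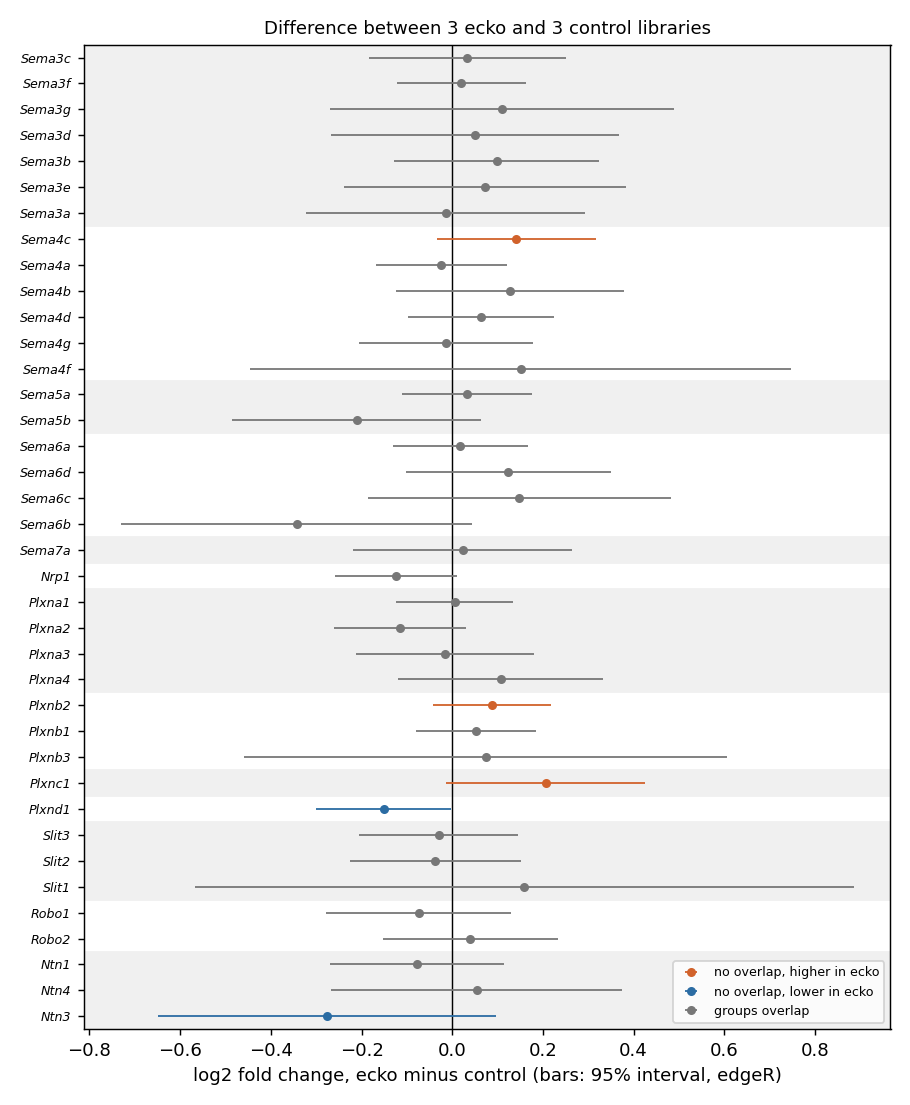
Log2 fold change, ecko minus control, of the 38 genes with 95% intervals from edgeR; colour marks whether the values of the 3 ecko and 3 control libraries overlap. All intervals but that of Plxnd1, whose upper end is -0.002, cross 0, and the widest belong to Slit1 and Sema4f.

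Plxnd1 and Nrp1, the receptors of this group best known in endothelium, had slightly lower means in ecko. Plxnd1 (Entrez 67784, chromosome 6, 115954811 to 115995339 in GRCm38.p6), which receives semaphorin 3E, had 125.3, 139.6 and 125.4 CPM in the controls and 111.6, 123.4 and 116.6 in ecko. Every ecko library was below every control library, with ecko 2 just under controls 1 and 3. The log2 fold change was -0.15 ± 0.07 (SE; 95% interval -0.30 to -0.002) and the edgeR adjusted p 0.553. Nrp1 (Entrez 18186, chromosome 8, 128358591 to 128505476) had 130, 135 and 124 CPM in the controls and 116, 117 and 124 in ecko. Here ecko 3 reached control 3, so the groups met. Its log2 fold change was -0.12 ± 0.06 (95% interval -0.26 to 0.01, adjusted p 0.578). With 1 library left out, Plxnd1 ran from -0.19 to -0.10 (without control 2) and Nrp1 from -0.16 to -0.10.

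Most general endothelial markers had lower means, with a median of similar size. Of 10 pan-endothelial markers, 9 were lower on average in the knockout and the median log2 fold change was -0.16. None passed the edgeR adjusted test, 4 were lower at an unadjusted p under 0.05 (4.1% of all genes tested) and 5 were lower without overlap (8.11% of all genes). Their part in the Plxnd1 and Nrp1 values was not tested. Their summed CPM was 446 to 534 in the controls and 407 to 437 in ecko. The cadherin gene Cdh5 had -0.26, the receptor gene Tie1 -0.21 and the adhesion gene Pecam1 -0.17. Nearer to no change were Cldn5 at -0.06 and Egfl7 at 0.005, both with overlap. Set against that sum, a ratio chosen after the values were seen, Plxnd1 was 0.273 ± 0.010 in the controls and 0.277 ± 0.011 in ecko (SD, n = 3), and Nrp1 was 0.272 ± 0.018 and 0.281 ± 0.0065. Both ratios overlapped between groups. They restate the values above and are no test of a cause. Robo4 belongs to the endothelial list and to the guidance receptors alike. Of 7 lymphatic endothelial markers, 2 had a higher and 5 a lower mean, with a median of -0.03. Their summed CPM was 179 to 193 in the controls and 172 to 196 in ecko.

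**Figure D3:**
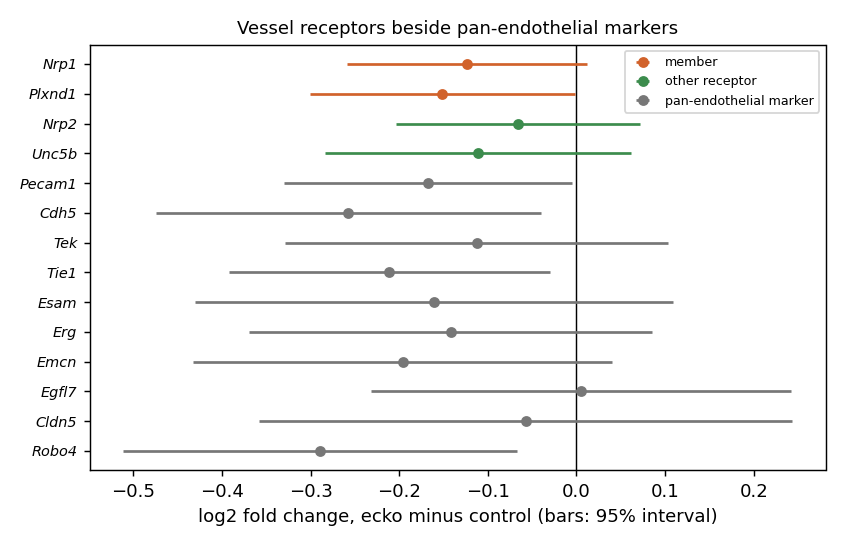
Log2 fold change with 95% interval for Nrp1 and Plxnd1 (orange), 2 guidance receptors outside the examined set, Nrp2 and Unc5b (green), and 10 pan-endothelial markers (grey). Plxnd1 at -0.15 and Nrp1 at -0.12 lie among the endothelial markers, whose median is -0.16.

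The class 3 semaphorins, secreted ligands of these receptors, had 0 of 7 members past the test. Means were higher in ecko for 6 and lower for 1, where 49.5% of all genes had a higher mean. Log2 fold changes ran from -0.01 to 0.11 around a median of 0.05. Sema3e, the direct ligand of plexin D1, had 23.7, 25.8 and 30.4 CPM in the controls and 32.7, 28.5 and 22.8 in ecko. Its highest and lowest libraries were both ecko, and the log2 fold change was 0.07 (95% interval -0.24 to 0.38), running from -0.06 without ecko 1 to 0.20 without ecko 3. Sema3g, a class 3 member of vessels, had 32.3, 34.2 and 21.0 CPM in the controls against 32.1, 29.0 and 33.5 in ecko. Control 3 alone was low: the log2 fold change was 0.11 with all libraries and -0.07 without it.

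Sema3a, a repellent of sensory axons and of endothelial cells, had 26.4, 20.7 and 31.8 CPM in the controls and 27.1, 25.6 and 25.3 in ecko. The ecko libraries lay inside the control range, and the log2 fold change of -0.01 became 0.15 without control 3. Sema3c, the most abundant semaphorin, had 140, 138 and 177 CPM in the controls and 151, 166 and 148 in ecko, with control 3 highest and a log2 fold change of 0.03, or 0.16 without that library. Sema3f, which acts through NRP2, was steady at 87.2 to 92.1 CPM in the controls and 87.8 to 96.4 in ecko (0.02, 95% interval -0.12 to 0.16). The remaining Sema3b and Sema3d had log2 fold changes of 0.10 and 0.05 with overlapping groups.

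The class A plexins, which signal for class 3 and class 6 semaphorins, had 0 of 4 members past the test. Plxna1 carried 65.2% of their summed RPKM and had 198, 212 and 201 CPM in the controls against 201, 202 and 209 in ecko, all within a narrow band. Its log2 fold change of 0.005, with a 95% interval of -0.12 to 0.13, was the closest to 0 of the 38. Exons on the opposite strand overlap 970 bp of Plxna1, 257 bp of Plxnb1 and 110 bp of Plxna4, and how the counting treated strand is not known. Plxna2 had 97.4, 99.9 and 103 CPM against 88.4, 99.4 and 89.6, with ecko 2 level with the controls (-0.11, 95% interval -0.26 to 0.03, adjusted p 0.627). Plxna3 and Plxna4 had -0.02 and 0.11 with overlapping groups.

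Among class 4 semaphorins and class B plexins, membrane ligands and their receptors, Plxnb2 and Sema4c had separate groups. Plxnb2 (Entrez 140570, chromosome 15, 89155546 to 89182018), an epithelial plexin, had 269, 276 and 262 CPM in the controls and 296, 283 and 278 in ecko. All ecko libraries were higher, by a log2 fold change of 0.09 ± 0.06 (SE; 95% interval -0.04 to 0.22, adjusted p 0.674). Sema4c (Entrez 20353, chromosome 1, 36548639 to 36560699), a ligand of plexin B2, had 53.7, 54.5 and 46.1 CPM against 56.4, 56.5 and 57.3. Control 3 was the lowest library by a wide step: the log2 fold change was 0.14 (95% interval -0.03 to 0.32, adjusted p 0.621) and 0.07 without it. Exons of a transcript on the opposite strand, D430040D24Rik, cover 334 bp of Sema4c.

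The other class 4 and class B genes had overlapping groups. Sema4b had a log2 fold change of 0.13, Sema4d, a ligand of plexin B1, 0.06, Sema4a -0.02, Sema4g -0.01 and the rare Sema4f 0.15 (95% interval -0.45 to 0.75). Plxnb1 had 0.05 and Plxnb3 0.07. Counts of Plxnb1 and Sema4d were fractional in 5 and 6 libraries and those of Sema3b in 2, and fractions can come from reads that were divided among loci.

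**Figure D4:**
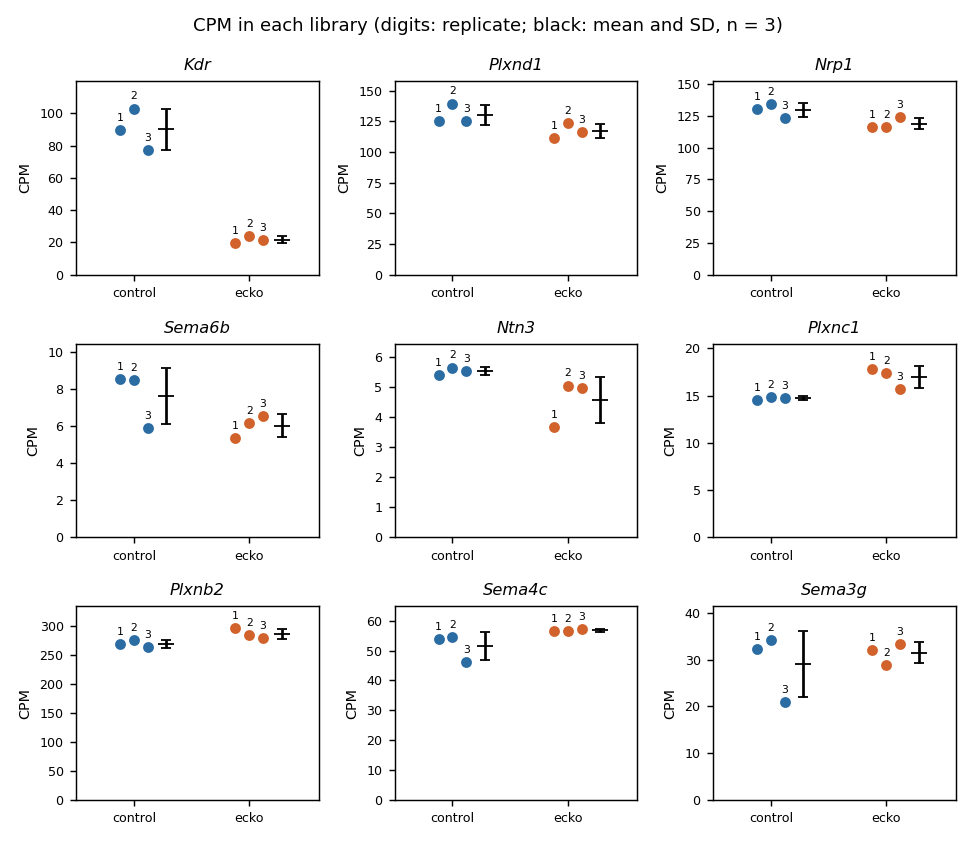
CPM in each library for Kdr and 8 guidance genes, controls in blue and ecko in orange, digits giving the replicate and black bars the mean and SD (n = 3); each axis starts at 0. Kdr drops from 90.0 to 21.7 CPM on average, whereas the guidance genes differ by small steps, and control 3 stands low for Sema3g, Sema4c and Sema6b.

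Semaphorins of classes 5 to 7 held the lowest estimate of the set. Sema6b, a transmembrane class 6 member, had 8.54, 8.47 and 5.88 CPM in the controls and 5.34, 6.17 and 6.55 in ecko. Control 3 fell among the ecko libraries, so the groups overlapped. The log2 fold change was -0.34 ± 0.18 (SE; 95% interval -0.73 to 0.04, adjusted p 0.592), and -0.49 without control 3. Sema5b, with thrombospondin repeats, had 11.3, 12.2 and 11.3 CPM against 9.13, 9.59 and 11.3, with ecko 3 level with the controls (-0.21, 95% interval -0.48 to 0.06, adjusted p 0.631; -0.31 without ecko 3). Classes 5 and 6 each also hold a more abundant member. Sema5a had 114, 118 and 129.7 CPM in the controls and 125, 121 and 123.1 in ecko, inside the control range (0.03, or 0.09 without control 3). Sema6a had 57.2, 59.7 and 61.3 CPM against 62.5, 57.9 and 60.0, again overlapping (0.02, 95% interval -0.13 to 0.17). Sema6c and Sema6d had 0.15 and 0.12 with overlapping groups.

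Plxnc1, the receptor of the GPI-anchored semaphorin 7A, had the highest estimate of the set. Plxnc1 (Entrez 54712, chromosome 10, 94790866 to 94945015) had 14.5, 14.9 and 14.8 CPM in the controls and 17.9, 17.4 and 15.7 in ecko. The controls were almost equal and every ecko library was above them, with a log2 fold change of 0.21 ± 0.10 (SE; 95% interval -0.01 to 0.43) and an adjusted p of 0.578. Plexin C1 is also made by leukocytes, and all 6 macrophage markers had higher means in ecko (median 0.22, 0 past the test). Their summed CPM was 463 to 546 in the controls and 503 to 575 in ecko. The 2 T and B cell markers tested both had lower means (median -0.20). These were scarce, with summed CPM of 2.55 to 3.09 in the controls and 1.85 to 3.23 in ecko. Of 5 mast cell markers, 4 had a higher and 1 a lower mean (median 0.04). The part of these cells in the Plxnc1 result was not tested. Exons of another gene, Gm48718, cover 115 bp of Plxnc1 on the same strand. The plexin C1 ligand gene Sema7a had 24.4, 30.5 and 23.4 CPM against 27.2, 26.6 and 25.7 (0.02, overlapping).

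Slits and robos, the midline repellents and their receptors, had 0 of 5 tested members past the test. Slit3 made up 86.5% of the summed slit RPKM, a share that rests on exon lengths of 6067 bp for Slit3 and 25433 bp for Slit2. Without division by length, Slit3 averaged 96.5 and Slit2 59.5 CPM over 6 libraries. Slit3 had 92.4, 91.6 and 109 CPM in the controls and 99.2, 97.9 and 89.6 in ecko (-0.03, or 0.06 without control 3). Slit2 had 53.2, 61.0 and 66.6 CPM against 59.3, 59.5 and 57.3, the ecko values lying within the controls (-0.04, or 0.05 without control 3). Slit1, at 10 to 22 counts per library, had 0.16 with a 95% interval of -0.57 to 0.89. Robo1, the main robo, had 120.3, 131.6 and 156.9 CPM in the controls and 132.9, 123.2 and 132.3 in ecko (-0.07, 95% interval -0.28 to 0.13), and 0.04 without control 3. Robo2 had 0.04 with overlapping groups.

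Netrins were led by Ntn1, with 90.8% of the summed netrin RPKM. Ntn1 had 167, 195 and 200 CPM in the controls and 172, 165 and 196 in ecko, a log2 fold change of -0.08 (95% interval -0.27 to 0.11) with each group split between low and high libraries. The value ran from -0.16 without control 1 to -0.02 without control 3. Ntn4, a laminin-like netrin of basement membranes, had 6.18, 7.91 and 7.32 CPM against 7.68, 6.78 and 7.78 (0.05, 95% interval -0.27 to 0.38). Ntn3 (Entrez 18209, chromosome 17, 24203831 to 24209387), a netrin known from sensory ganglia, was counted at 96, 102 and 96 in control and 66, 90 and 85 in ecko libraries, that is 5.40, 5.64 and 5.54 against 3.67, 5.05 and 4.97 CPM. All ecko libraries were lower, and ecko 1 was the lowest: the log2 fold change was -0.28 ± 0.17 (SE; 95% interval -0.65 to 0.10, adjusted p 0.639) and -0.14 without it. Exons of other genes cover 139 bp of Ntn3 on the opposite and 89 bp on the same strand.

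Receptors and effectors outside the set were counted from lists written for this comparison. Of 20 other ligands and receptors tested, Kdr aside, 0 passed, 9 had a higher and 11 a lower mean (median -0.02), and DESeq2 and limma-voom called 0. At an unadjusted p under 0.05, 0 were higher and 2 lower by edgeR, DESeq2 and limma-voom alike, where 4.1%, 2.82% and 3.95% of all genes were lower. Unc5a, a netrin receptor, had 74, 58 and 52 counts among control libraries and 34, 45 and 36 among ecko libraries, with separate groups (-0.67, 95% interval -1.14 to -0.19, adjusted p 0.464). Robo4, the endothelial robo, had 368, 425 and 424 counts against 318, 333 and 339, also separate (-0.29, 95% interval -0.51 to -0.07, adjusted p 0.495). Unc5a and Robo4 were the 2 of 20 without overlap, both lower, and 8.11% of all genes were so placed. Neo1, the neogenin gene, had -0.12 and the B-cell receptor for semaphorin 4D, Cd72, -0.30, both with overlap. The VEGF-C co-receptor Nrp2 had -0.07 and Unc5b, the endothelial netrin receptor, -0.11, with adjusted p of 0.764 and 0.684.

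Among the netrin receptors Neo1 averaged 24.7 RPKM and Unc5b 14.0, while Dcc, the axonal receptor, had 10 to 17 counts per library and 0.058 RPKM. Of 34 effectors inside the cell, which pass plexin and robo signals to the cytoskeleton, 0 passed, 17 had a higher and 17 a lower mean, and the median was -0.001. At an unadjusted p under 0.05 there was 1 effector higher by edgeR, 1 higher by limma-voom and 0 by DESeq2, and none lower, where edgeR gave 4.92% of all genes higher and 4.1% lower. Groups did not overlap in 3 effectors, all higher, and 7.55% of all genes were so placed. Srgap2, a slit-robo GTPase activator, had 0.14, Dpysl2, the CRMP2 gene, 0.12 and the cofilin kinase gene Limk1 -0.18.

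Upstream sequence was available for 33 of the 40 genes in the RefSeq promoter table of GRCm38.p6, in 46 windows, and the 250 bases before each start were read. Many windows lay inside the RefSeq gene or overlapped GENCODE exons, so they are not upstream sequence alone. For 37 of the 46, the first 30 transcribed bases were found in a GENCODE transcript of the gene. These windows were rich in G and C, with a median of 63.8% against 52.4% over all 32851 windows. A GC box, spelled GGGCGG on either strand, occurred in 67.4% of the member windows and in 32.7% of all windows, a comparison that shares this difference in base composition. The ETS core CCGGAA, bound by a factor family that includes endothelial regulators, occurred in 8.7% against 12%, the TATA box TATAAA in 2.17% against 12.4%, and the E-box CACGTG in 6.52% against 6.02%, each on either strand. These comparisons share the difference in base composition too, and the TATA box share is 1 member window.

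Windows are shown for Sema6b, the gene with the lowest estimate, and for Sema3e and Ntn4, vessel ligands whose groups overlapped. Another Sema6b window, inside the gene, is not shown. Those shown lie wholly before the RefSeq gene and overlap no GENCODE exon. They are written 5′ to 3′ on the gene's strand, with capitals for GC boxes. None of the 3 windows shown holds the ETS core. Ntn4 has 4 GC boxes, a pair of them overlapping, Sema3e has 2 and Sema6b has 1. They lie at chr17:56140344-56140593 (minus strand, Sema6b), chr5:14025026-14025275 (plus strand, Sema3e) and chr10:93640799-93641048 (plus strand, Ntn4).
Sema6b: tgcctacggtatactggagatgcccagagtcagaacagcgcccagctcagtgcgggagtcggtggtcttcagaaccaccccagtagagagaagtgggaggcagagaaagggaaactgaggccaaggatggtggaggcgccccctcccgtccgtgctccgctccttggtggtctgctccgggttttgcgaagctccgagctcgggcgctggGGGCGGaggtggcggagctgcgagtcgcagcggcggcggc
Sema3e: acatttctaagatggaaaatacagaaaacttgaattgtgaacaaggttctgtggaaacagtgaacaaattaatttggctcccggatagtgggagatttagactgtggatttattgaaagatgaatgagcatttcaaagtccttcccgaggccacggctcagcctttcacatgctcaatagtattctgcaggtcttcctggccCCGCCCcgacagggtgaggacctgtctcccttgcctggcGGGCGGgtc
Ntn4: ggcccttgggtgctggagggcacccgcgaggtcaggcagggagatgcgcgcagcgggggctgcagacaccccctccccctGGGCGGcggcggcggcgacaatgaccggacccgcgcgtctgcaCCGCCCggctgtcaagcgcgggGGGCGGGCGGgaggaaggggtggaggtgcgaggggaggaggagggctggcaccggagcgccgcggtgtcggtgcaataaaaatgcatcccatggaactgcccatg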

How the data were processed

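Poly(A) RNA of ear skin was sequenced in 6 libraries. The authors deposited 1 table of expected counts per gene, not scaled between libraries: 10.1% to 10.4% of values are not whole. Build GRCm38.p6 and the tools RSEM 1.3.1, Bowtie2 2.4.5 and HISAT2 2.2.1 are listed, without roles, in the submitters' processing notes. Annotation and strand setting are not given in the sources used here.

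Counts were rounded and tested over all 14920 genes kept by filterByExpr (minimum count 10), with TMM scaling and the quasi-likelihood test of edgeR 4.0.16 (robust) in R 4.3.3, two-sided, Benjamini-Hochberg adjusted, threshold 0.05. SE is the absolute log2 fold change over the root of F. RPKM used union exon lengths of GENCODE for the same build, which may exceed the transcript present. Alternatives used DESeq2 1.42.0, limma 3.58.1, other scalings and filters, covariates, a replicate block and each library left out.

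The members and lists were chosen with earlier results of these data known. Values per library are given for members with a vessel role, the 8 of smallest p, the most abundant of each family, those without group overlap and those beside the count limit. One effector that the naming rule selects is not reported here. Reads carry no molecular identifiers, so their number limits precision for sampling alone.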

Additional observations from a re-analysis of the deposited data

How the results depend on the processing

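No member was called under any alternative run. Members past an unadjusted p of 0.05 numbered 3 with a skeletal muscle covariate (all lower, where 4.08% of all genes were lower), 0 with limma-voom, DESeq2, no low-count filter or a Y-linked covariate, and 0 to 5 when single libraries were omitted (5 without control 3, of them 2 higher and 3 lower, where 5.02% and 4.26% of all genes were). Groups without overlap numbered 3 to 9 higher (9 without control 2) and 2 to 4 lower with 1 library left out, where fewer libraries make separation easier: without control 2, 12.7% of all genes were higher without overlap, and over the omissions 10% to 15% were higher and 10.9% to 15.7% lower. The members' median log2 fold change ran from -0.007 to 0.039. Over all genes, the muscle covariate gave 36 calls, the Y-linked covariate 2, the replicate block 98 and DESeq2 113, and omitting a library gave 1 to 3 (3 without ecko 3); the cause was not tested. The replicate numbers did not pair the libraries: deviations correlated across genes at 0.182, -0.293 and -0.0924 for equal numbers, and at 0.405 for control 2 with ecko 3. No member was called with the block.

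Some log2 fold changes changed sign, most of them near 0. Sema3g, Sema4f and Slit1 did so from 0.11, 0.15 and 0.16 in the main run. Sema3a reached 0.0549 under the muscle covariate, 0.00315 under the replicate block and 0.00916 under limma-voom. Under the muscle covariate Slit2 was 0.0228, Robo1 0.00588, Sema7a -0.00654 and Slit3 0.0146. With 1 library left out the ranges were -0.164 to 0.149 for Sema3a, -0.058 to 0.198 for Sema3e, -0.026 to 0.044 for Sema3f, -0.072 to 0.238 for Sema3g, -0.034 to 0.164 for Sema3c, -0.00873 to 0.0939 for Sema5a, -0.014 to 0.047 for Sema6a, -0.045 to 0.148 for Sema7a, -0.027 to 0.349 for Sema4f, -0.017 to 0.034 for Plxna1, -0.121 to 0.045 for Slit2, -0.075 to 0.059 for Slit3, -0.051 to 0.492 for Slit1, -0.158 to 0.044 for Robo1 and -0.041 to 0.132 for Ntn4.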

Other observations

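The members followed the libraries unevenly. Control 3 held the lowest CPM of the 6 libraries for 13 members and the highest for 10, that is 34.2% and 26.3%, beside 29.3% and 27.5% of all genes tested. Among the 10 highest were Sema3a, Sema3c, Sema3d, Slit2, Slit3, Robo1 and Ntn1, and among the 13 lowest Sema3g, Sema4b, Sema4c, Sema6d and Plxnb2. Control 1 was lowest for 10 members and control 2 highest for 10, each 26.3%, beside 13.8% and 16.2% of all genes.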
